A study of Pan paniscus with 11 samples.

Results

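The 10 genes described here belong to the Notch and Wnt signalling pathways, and were followed across 11 cultures of bonobo (Pan paniscus) fibroblasts. They were taken by gene symbol: 4 Notch genes (NOTCH2, NOTCH3, JAG1 and HES1) and 6 Wnt genes (WNT5A, FZD2, FZD7, DKK1, SFRP1 and FRZB), out of 8226 symbols on the array. Together they have 13 probe sets, a probe set being the group of probes that reports 1 transcript. Each value is an intensity, the brightness of a probe set on a linear scale. Each culture was measured on 1 array.

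One culture, a further one of male line 1, was taken at 50% confluence, which means that 50% of the growth surface was covered. The 5 male lines, numbered 1 to 5, came from normal animals aged 4, 2, 12, 17 and 19 years and were harvested under standard conditions, as were the 5 female lines, from normal animals aged 9, 2, 4, 20 and 20 years. The labels name no genotype or drug, and passage numbers and the confluence of the standard cultures are not given in the sources used here. With 1 culture per line, every p-value below rests on the spread between lines, which holds both biological and technical differences.

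Notch receptors are cleaved after they bind a ligand such as JAG1 on a neighbouring cell, and the freed intracellular part enters the nucleus, joins the DNA-binding protein RBPJ and switches on genes such as HES1. Signalling therefore needs contact between cells. Wnt proteins are secreted, bind Frizzled receptors, and act either by stabilising beta-catenin or through other routes. DKK1 blocks the LRP5 and LRP6 co-receptors, whereas SFRP1 and FRZB bind Wnt proteins outside the cell. In skin, a usual source of cultured fibroblasts (the labels name no tissue), both pathways are known for their part in patterning, hair follicle growth and repair.

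Fibroblast markers were strong in every culture, with 14 of 14 above the floor in all 11 and a median intensity of 5203.5. The floor, the level to which low values were raised, was 100 here. Markers of endothelial, melanocyte or Schwann, and blood cells had a median of 100, and keratinocyte markers one of 102. Their summed intensities were 900 to 1106 for 9 endothelial markers (900 if all at the floor), 618 to 1076 for 6 melanocyte or Schwann markers (600), 1081 to 1487 for 7 blood cell markers (700) and 1617 to 2632 for 10 keratinocyte markers (1000). The summed intensity of 11 mural and smooth muscle markers, genes of the contractile cells around vessels, ran from 14149 to 66413 in males and from 29450 to 44055 in females. Of these, DES was at the floor throughout and 5 were above it in all 11 cultures. The 50% confluence array stood apart with 18S ribosomal RNA control signals of 1508 to 2611. Those controls read 146 to 313 in male line 4 and at most 171 in the other lines. In male line 4 the 3′ probe set of ACTB read 2.27 times its 5′ probe set.

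Of the 10 genes, 7 could be measured across lines and 3 could not. NOTCH3, JAG1, HES1, WNT5A, FZD2, FZD7 and DKK1 had 10 probe sets above the floor in at least 5 of 11 arrays, the condition for testing. NOTCH2, SFRP1 and FRZB, with 1 probe set each, did not meet it. NOTCH2, a receptor, read 142 at 50% confluence, 105 in male line 4, 134 in female line 4 and 126 in female line 5, and was at the floor in the other 7 cultures. SFRP1 read 145 in male line 4 and 129 in female line 5 and was at the floor elsewhere. FRZB was not above the floor in any culture. A value at the floor is only an upper bound, and whether bonobo sequences match the probes, which are annotated to human genes, was not tested.

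**Figure D1:**
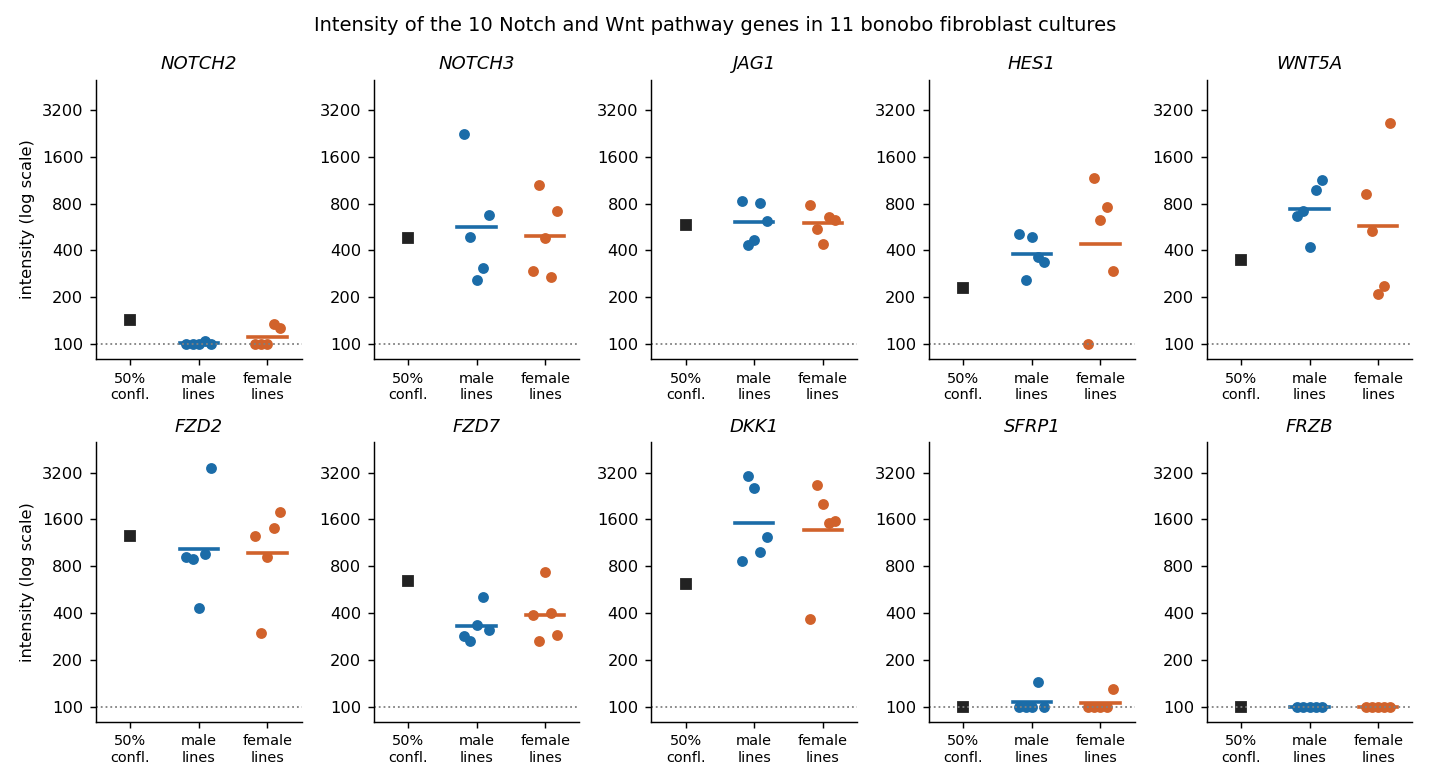
Intensity (log scale) of each of the 10 genes at 50% confluence (square), in the 5 male lines and in the 5 female lines (circles, in line order; bars are geometric means). The dotted line is the floor of 100. NOTCH2, SFRP1 and FRZB lie on or close to it, and male and female lines overlap in every panel.

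The first comparison asked whether these genes differed between male and female lines, and none passed. Of 10 member probe sets, 0 had an adjusted p under 0.05 in the limma fit of sex and age over all 7333 tested probe sets, in which 0.0273% were called by sex. At an unadjusted p under 0.05 the count was also 0, beside 171 of all 7333. Male and female ranges overlapped for all 7 genes, and the share of all genes with such overlap was not computed. In a bulk culture, fewer cells that express a gene and less RNA per cell cannot be told apart.

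The receptor NOTCH3 had intensities of 2223, 488, 256, 306 and 677 in male lines 1 to 5, against 294, 1060, 479, 268 and 714 in female lines 1 to 5. Male line 1 was the highest by far, while the other 4 males lay within the female range or just below it. The mean was 790 ± 818 in males and 563 ± 330 in females (SD, n = 5 each), and the log2 difference, male minus female, was 0.19 ± 0.50 (SE; limma adjusted p = 0.9999). NOTCH3 is known for its role in mural cells. The summed mural markers were 48016 in male line 1 and 66413 in male line 5, the highest. These sums came largely from TAGLN (24068 and 32430) and ACTA2 (10185 and 21614). The part of mural markers in the NOTCH3 values was not tested.

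JAG1, the ligand, was the steadiest of the 7. Its brighter probe set read 829, 430, 465, 803 and 621 in male lines 1 to 5, and 783, 551, 442, 655 and 625 in female lines 1 to 5. The highest line was 1.93-fold above the lowest, and the sexes were spread over the same interval. The log2 difference was 0.02 ± 0.26 (SE; limma adjusted p = 0.9999). A dimmer JAG1 probe set, designed on another accession, read 100 to 163 in males and 100 to 199 in females. The log2 values of the 2 JAG1 probe sets followed each other weakly over the 10 lines (r = 0.21), so statements about JAG1 depend on which is read.

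HES1, a repressor gene that Notch switches on, read 512, 259, 488, 363 and 335 in male lines 1 to 5. In female lines 1 to 5 it read 100, 1174, 631, 757 and 294. The females held both extremes, female line 1 at the floor and female line 2 at the top, and the males lay between. The log2 SD was 0.41 in males and 1.40 in females (n = 5 each), a difference in spread that was not tested. The log2 difference between the sexes was -0.22 ± 0.53 (SE; limma adjusted p = 0.9999). It turned to 0.18 without female line 2 and to 0.072 without female line 4.

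WNT5A, a ligand that acts largely without beta-catenin, read 667, 721, 419, 973 and 1136 in male lines 1 to 5 with the brighter of its 2 probe sets. It read 918, 536, 210, 236 and 2621 in female lines 1 to 5. Female line 5 was highest and female lines 3 and 4 lowest, so the males again fell inside the female range. The log2 SD was 0.56 in males and 1.501 in females. The log2 difference was 0.37 ± 0.53 (SE; limma adjusted p = 0.9999), and -0.16 without female line 4. The second probe set, from the same accession, followed the first over the lines (r = 0.86) and gave 0.37 ± 0.40.

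FZD2 and FZD7 encode receptors of the Frizzled family. FZD2 read 923, 896, 430, 961 and 3439 in male lines 1 to 5 and 1250, 297, 913, 1416 and 1788 in female lines 1 to 5. Male line 5 was the highest line and female line 2 the lowest. Its 2 probe sets, from 1 accession, moved together (r = 0.97) with log2 differences of 0.11 ± 0.42 and 0.19 ± 0.43 (SE). FZD7 read 285, 264, 337, 508 and 313 in male lines 1 to 5 and 389, 264, 736, 398 and 288 in female lines 1 to 5. Female line 3 was the highest for FZD7, and the other 9 lines lay between 264 and 508. Its log2 difference was -0.22 ± 0.32 (SE; limma adjusted p = 0.9999), and 0.056 without female line 3.

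DKK1, the secreted antagonist, read 864, 3043, 2530, 994 and 1236 in male lines 1 to 5. In female lines 1 to 5 it read 365, 2681, 2020, 1520 and 1565. Female line 1 lay well below all others, and it was also the line in which HES1 was at the floor and in which 15 mitosis genes had their lowest sum (2357, against 3745 to 15789 in the other lines). The part of growth state in these values was not tested. The log2 difference of DKK1 between the sexes was 0.15 ± 0.48 (SE; limma adjusted p = 0.9999), and turned to -0.34 without female line 1, -0.075 without male line 2 and -0.039 without male line 3.

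The second comparison asked whether the genes changed with the age of the donor. No member probe set passed, and 0% of all 7333 were called by age. At an unadjusted p under 0.05 there were 2 of 10 member probe sets, both of FZD2, and 251 of all 7333. Between the sexes, the age slopes of the members did not pass either: 0 of 10 were called by the sex by age term (0 at an unadjusted p under 0.05), where 0.0136% of all were, and the lowest limma adjusted p among them was 0.978.

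FZD2 had the largest age estimate. In order of age, it read 896 and 297 at 2 years (male and female), 923 and 913 at 4 years, 1250 at 9, 430 at 12, 961 at 17, 3439 at 19, and 1416 and 1788 at 20 years. The 4 lines from animals of 17 years or more (961 to 3439) lay above the 4 from animals of 4 years or less (297 to 923), a grouping made after the values were seen, but male line 3, aged 12 years, lay below most of the young lines. The slope was 0.82 ± 0.29 log2 per 10 years (SE; unadjusted p = 0.0132, limma adjusted p = 0.999), and 0.78 ± 0.30 with the other probe set (unadjusted p = 0.0197). It was 0.56 without female line 2 and 0.57 without male line 5, and in neither case did either probe set keep an unadjusted p under 0.05. Male line 5 also had the highest sum of mural markers (66413), most of it from TAGLN (32430) and ACTA2 (21614). Other markers were not highest there: MYH11 read 626, against 6163 in female line 1, and CNN1 329, against 1033 in female line 3. The part of mural cells or of a contractile state in the slope was not tested.

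The other slopes were smaller than FZD2's and had limma adjusted p-values of 0.999. NOTCH3 was estimated at -0.52 ± 0.34 log2 per 10 years, with 479 to 2223 in the 4 youngest lines and 268 to 714 in the 4 oldest. That estimate ran from -0.79 without female line 5 to -0.23 without male line 1. WNT5A stood at 0.49 ± 0.37 and 0.34 ± 0.28 by its 2 probe sets. The first was 0.028 without female line 5 and 0.95 without female line 4, and the second 0.092 and 0.64. Without female line 4, 4 member probe sets had an unadjusted p under 0.05, beside 266 of all 7333. They came from 2 genes, WNT5A and FZD2. Female lines 4 and 5, both from animals of 20 years, read 236 and 2621 for WNT5A, nearly its whole range. DKK1 was at -0.27 ± 0.33 (-0.45 without male line 1 and -0.079 without male line 2), HES1 at -0.19 ± 0.36, JAG1 at 0.17 ± 0.18 and -0.04 ± 0.18, and FZD7 at 0.05 ± 0.22 (SE throughout).

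**Figure D2:**
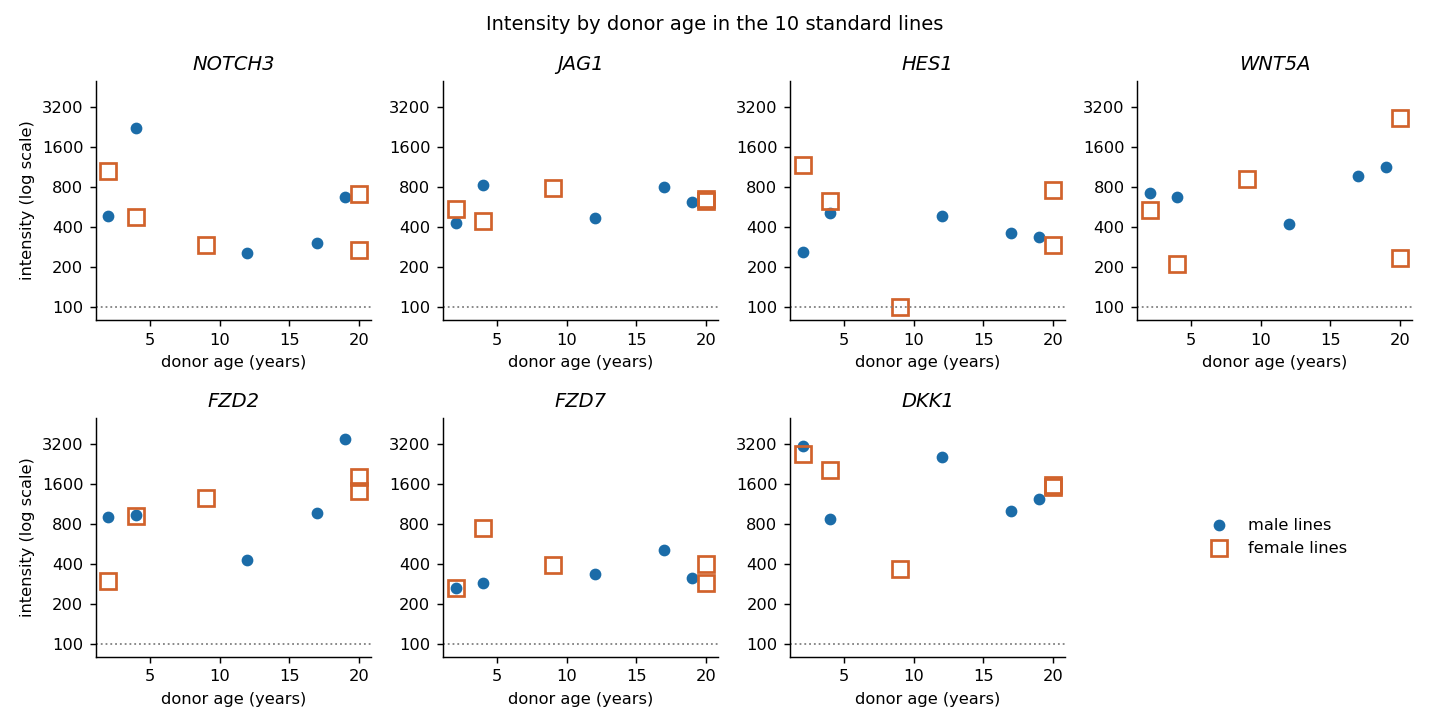
Intensity (log scale) of the 7 measured genes against donor age in years, with male lines as filled circles and female lines as open squares. FZD2 was higher in the 4 oldest lines (961 to 3439) than in the 4 youngest (297 to 923), and WNT5A read 236 and 2621 in both lines of 20 years.

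The third comparison set the culture of male line 1 taken at 50% confluence against the standard culture of the same line. NOTCH3, HES1 and FZD7 differed by over 2-fold, NOTCH3 and HES1 lower and FZD7 higher at 50% confluence. That is 3 of 7 genes measured in both cultures, where 9.38% of 4497 genes on 1 probe set each differed by over 2-fold, 4.71% higher and 4.67% lower. The 7 are not a like set: they were chosen with earlier results of these data known. Their median log2 SD over the standard lines was also larger (0.98, against 0.43 for all tested genes). There was 1 culture per state, so there is no replicate check and no test.

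NOTCH3 read 480 at 50% confluence, against 2223 in the standard culture, a log2 difference of -2.21. The standard culture was the highest of the 10 lines, and the 50% confluence culture ranked sixth of 11, in the middle of the lines. JAG1 read 580 against 829 at 50% confluence and in the standard culture (-0.52), while its dimmer probe set read 174 against 163 (0.09). HES1 read 229 against 512 (-1.16), and at 50% confluence it lay below 9 of the 10 standard lines. Thus the brighter probe sets of the 3 measured Notch genes were all lower at 50% confluence. Between pairs of standard lines, 5 of 45 pairs differed by more than this in NOTCH3, 15 in JAG1 and 19 in HES1. All 5 NOTCH3 pairs included the standard culture of male line 1 itself (2223, against 256 to 479 in the lines paired with it).

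Among the Wnt genes the directions were mixed. FZD7 read 643 at 50% confluence, against 285 in the standard culture (log2 difference 1.17), above 9 of the 10 standard lines. FZD2 read 1251 against 923 (0.44), and its other probe set 842 against 633 (0.41). WNT5A read 349 against 667 (-0.93) and, by its other probe set, 205 against 406 (-0.99). DKK1 read 617 against 864 (-0.49), so that both secreted proteins were lower and both receptors higher. Pairs of standard lines that differed by more numbered 5 of 45 for FZD7, 35 for FZD2, 26 for WNT5A and 33 for DKK1.

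All 7 genes stayed inside the range of the 10 standard lines at 50% confluence, whereas 17.3% of the 4497 genes lay outside theirs. NOTCH2, at the floor in the standard culture and thus not among the 7, read 142, above its highest standard line (134). Over the 7 genes the median log2 difference was -0.52, beside 0.00 over all 4497. The mural markers summed to 43792 at 50% confluence and 48016 in the standard culture, yet 6 of them were higher at 50% confluence and 4 lower. TAGLN read 17618 against 24068 and PDGFRB 2688 against 6679, while MYH11 read 3997 against 874 and CNN1 1154 against 362. The 15 mitosis genes summed to 5642 and 5043, with 8 higher and 7 lower. The 18S ribosomal RNA controls read 1508 to 2611 at 50% confluence and 100 in the standard culture, and the ACTB 3′ to 5′ ratio was 0.669 and 1.42. The part of RNA quality in these differences was not tested.

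**Figure D3:**
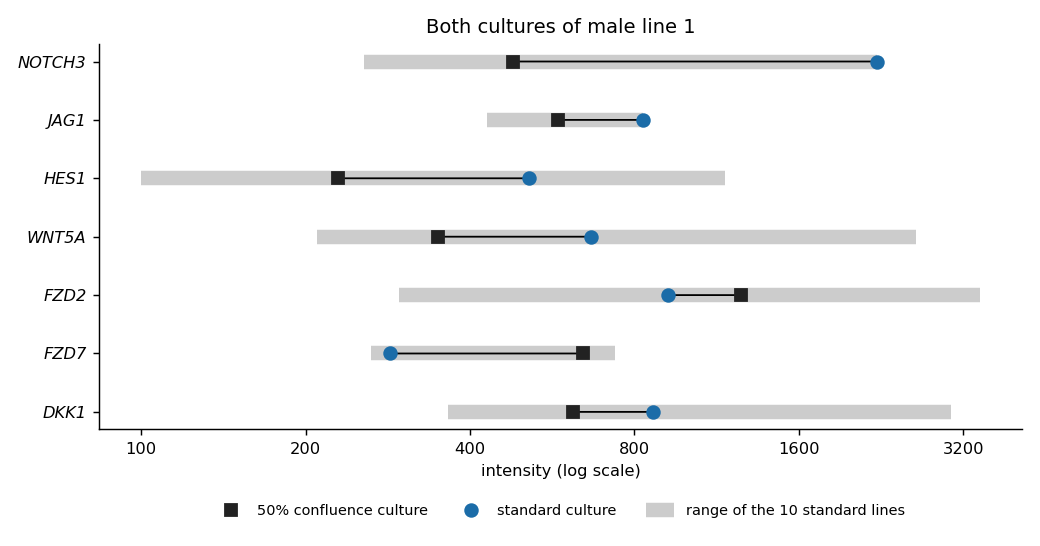
Intensity (log scale) of the 7 measured genes in both cultures of male line 1, with squares for 50% confluence, circles for the standard culture and grey bars for the range of the 10 standard lines. NOTCH3 (480 against 2223) and FZD7 (643 against 285) lie farthest apart, and every square is inside its grey bar.

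Other genes of both pathways gave the setting for these values. Of 48 further Notch pathway symbols, 27 were on the array and 22 were tested, and of 79 Wnt symbols, 50 were on the array and 37 tested. None passed for sex, age or sex by age in limma. At an unadjusted p under 0.05 there were 1, 0 and 2 Notch genes and 3, 2 and 0 Wnt genes in these 3 tests, named here after their values were seen: RBPJ, LGR5, WNT10B and WNT4 for sex, DKK4 and BTRC for age, and FURIN and KAT2A for sex by age. Over all 7333 probe sets the counts at that level were 171, 251 and 355, and none of the named genes passed after adjustment. Of the 7 listed Notch target genes other than HES1, 1 was on the array, HES2, and it was not above the floor. HES1 was thus the only one of the listed Notch targets that could be measured here.

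At 50% confluence, 6 of the 18 Notch list genes above the floor in both cultures were higher and 12 lower than in the standard culture, with a median log2 difference of -0.08 and 0 over 2-fold. Among these 18, the 4 largest differences were those of RFNG, an enzyme that adds sugars to Notch (442 against 224), the acetyltransferase gene KAT2A (556 against 1050), RBPJ, the DNA-binding partner of cleaved Notch (800 against 1327), and the co-activator gene EP300 (148 against 237). LFNG, an enzyme of the same kind as RFNG, was at the floor at 50% confluence, against 183 in the standard culture, and is not among the 18. RBPJ was thus lower together with NOTCH3 and HES1, though by less (-0.73), and lay just below the lowest standard line (801).

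Of 29 Wnt list genes above the floor in both cultures, 13 were higher and 16 lower, with a median of -0.11. ROR2, a receptor for WNT5A, read 683 at 50% confluence against 284 in the standard culture (1.27), and LRP5, a co-receptor blocked by DKK1, read 428 against 234 (0.87). AXIN1, a scaffold of the complex that destroys beta-catenin, read 141 against 307 (-1.12). APC, another part of that complex, read 398 against 203 (0.97), but a second probe set stood at -0.21. Of these 29 genes, ROR2 and AXIN1 differed by over 2-fold. Genes at the floor in either culture are not among the 29, and some of them were far apart too: TCF7L2 read 100 at 50% confluence against 350, TLE2 100 against 241, and WNT10B 243 against 100. Of the 5 listed Wnt receptor and co-receptor genes above the floor in both cultures, ROR2, LRP5, ROR1 (0.62) and FZD6 (0.04) were higher and RYK was lower (-0.59).

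**Figure D4:**
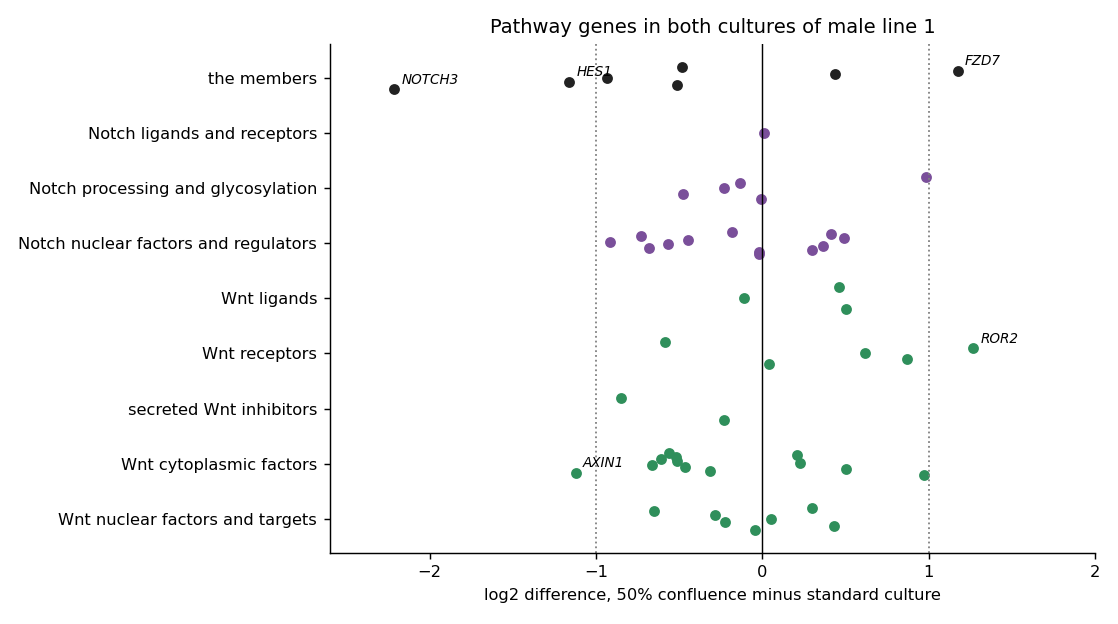
Log2 difference between both cultures of male line 1 (50% confluence minus standard) for the 7 measured members and for the list genes above the floor in both cultures, 1 point per gene. Dotted lines mark 2-fold, and genes beyond them (NOTCH3, HES1, FZD7, ROR2 and AXIN1) are named.

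The last question was how far lines of different animals varied. The SD of log2 intensity over the 10 standard lines was 1.08 for WNT5A, 1.002 for NOTCH3, 0.99 for FZD2, 0.98 for HES1, 0.92 for DKK1, 0.47 for FZD7 and 0.36 for JAG1. The first 5 lay between the 96.9 and 98.5 percentiles of the 5370 tested genes, FZD7 at 61.0 and JAG1 at 33.0. The median was 0.98 for the 7 genes and 0.43 for all tested genes. In the lists, the median SD was smaller, at 0.40 for 22 Notch genes and 0.48 for 37 Wnt genes. Some list genes lay near the floor, which can compress their SD: over the lines DLK1 read 100 to 153 and WNT7A 100 to 183. Members and lists were also chosen with earlier results of these data known. ROR2 (1.04) varied more than every member except WNT5A. TCF7L2, a transcription factor that works with beta-catenin (0.96), varied more than DKK1, FZD7 and JAG1. They were followed by SERPINF1 (0.80) and the ligand gene WNT10B (0.79), both above FZD7 and JAG1. Of the Notch list, RBPJ (0.64), MAML1 (0.60), the protease gene ADAM10 (0.59) and HDAC2 (0.55) varied most. ROR2 ran from the floor in male line 5 to 787 in female line 1.

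Whether ligand, receptor and target varied together was then examined over the 21 pairs of the 7 genes. JAG1 and DKK1 went opposite ways over the 10 lines (r = -0.83, permutation p = 0.00134, adjusted over the 21 pairs 0.0281; Spearman's rho = -0.88, permutation p = 0.00165, adjusted 0.0346). The lines with the least JAG1 (430 to 551) had 2020 to 3043 of DKK1, and those with the most (783 to 829) had 365 to 994. Without the 2 lines farthest from the median of JAG1, male line 2 and female line 3, r was -0.82 (permutation p = 0.0121). The relation did not pass with the dimmer JAG1 probe set (r = -0.38, permutation p = 0.283; rho = -0.39, permutation p = 0.268), a check added after the data were seen, and the adjusted p was 0.131 with the mean of both. It was also over 0.05 when male line 2, 3 or 5 or female line 4 or 5 was left out, up to 0.111, with r between -0.91 and -0.80 in all 10 cases.

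**Figure D5:**
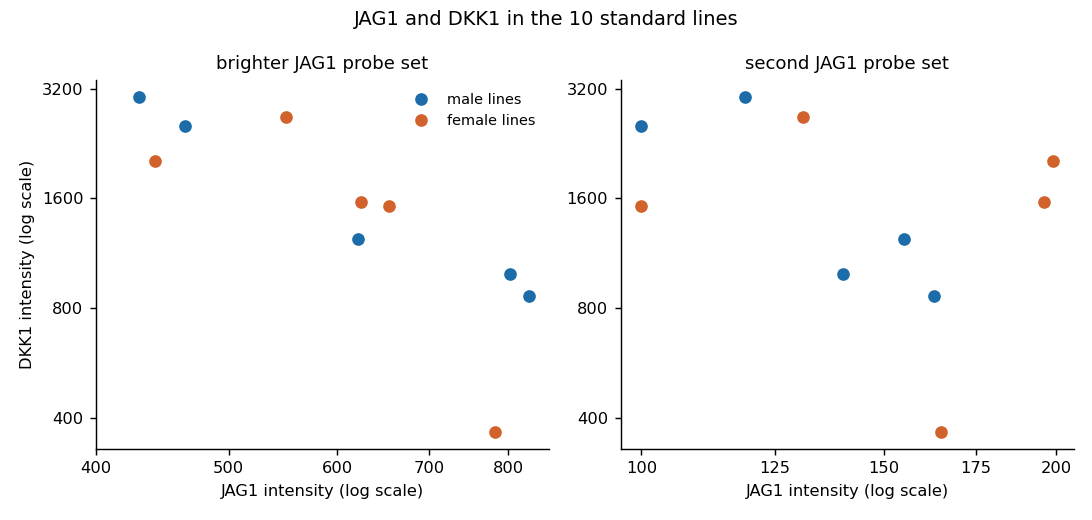
DKK1 against JAG1 intensity (both log scales) in the 10 standard lines, with the brighter JAG1 probe set on the left and the dimmer on the right. DKK1 falls as JAG1 rises on the left (r = -0.83) and the relation on the right, also inverse, did not pass (r = -0.38).

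No other pair passed. The target HES1 followed neither its receptor nor its ligand closely: r was 0.29 with NOTCH3 (permutation p = 0.405, adjusted 0.709; rho = 0.10) and -0.28 with JAG1 (permutation p = 0.448, adjusted 0.724; rho = -0.03). NOTCH3 and JAG1 had an r of 0.19 (permutation p = 0.607, adjusted 0.808; rho = 0.12). HES1 and DKK1 had an r of 0.63 (permutation p = 0.0550, adjusted 0.578; rho = 0.25), which rested on female lines 1 and 2: without them it was -0.14. HES1 and WNT5A had an r of -0.56 (permutation p = 0.0932, adjusted 0.615; rho = -0.71, permutation p = 0.0267, adjusted 0.280) and, without the same 2 lines, -0.83.

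For the 3 genes of largest SD, the genes with the most similar pattern over the 10 lines were sought among 5369 others. WNT5A was most like COX6B1 (r = 0.95), TWF2 (0.91) and LGALS1 (0.90), each of which was also highest in female line 5. NOTCH3 was most like PNPLA2 (0.92), NREP (0.90) and DTYMK (0.88), all highest in male line 1. FZD2 was most like TFAP2A (0.89), NME3 (0.87) and BABAM2 (0.84), all highest in male line 5. These are the top values of many, over few lines, and are given as a description.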

How the data were processed

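Fibroblast RNA of 10 bonobo lines, and of a second culture of 1 of them, had been measured on 11 Affymetrix arrays. The deposited values are intensities, 1 whole number per probe set; the authors' probe summary and array scaling were not stated in the labels. Low values had been raised to 100 before deposit. In male line 5 and the 50% confluence culture the lowest value was 90 (2321 and 2072 probe sets), and other low values there read 100. Array means trimmed by 2% ran from 405 to 418. The share of probe sets over 100 was 52.1% to 60.9% per array. The number of arrays limits the precision.

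The deposited scaling was kept, values were floored at 100 and log2 was taken, without 67 control probe sets. Probe sets above the floor in at least 5 of 11 arrays (7333 of 12558) were fitted with limma 3.58.1 in R 4.3.3, using lmFit and a trended eBayes, on the 10 standard lines; the terms were sex (male minus female) and age, then also sex by age. Adjusted p is Benjamini-Hochberg over all 7333, two-sided, with a threshold of 0.05. The fits were run on simulated data with planted differences and independent normal noise without a floor. The share of planted differences recovered is not given here. Correlations used 100000 permutations, two-sided. A gene's probe set of highest mean log2 stood for it. Symbols came from a 2016 probe annotation: 10943 probe sets had 1 symbol, 545 had more and 1070 had none. All 10 members are in the bonobo gene table. Lines were numbered within each sex in accession order, so numbers pair nothing.

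Members and lists were chosen with earlier results of these data known. The rule named list genes that passed a test (none did) and, per pathway, the 4 of largest harvest difference (genes over 100 on both arrays) and the 4 of largest SD; other list genes were named after their values were seen; likeness was taken for the 3 members of largest SD. Alternatives were quantile normalization, median centring, a floor of 200, a pseudocount of 50, other filters, variance models and covariates, the mean of a gene's probe sets, and leaving out each line. Sequences, including a planned search for promoter motifs, were not used here.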

Additional observations from a re-analysis of the deposited data

Results flagged for a closer look

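DKK1 in female line 1 read 365, apart from the other 4 female lines at 1520 to 2681. Of 30 groups of lines examined for the 10 member probe sets, this was the 1 in which a line stood apart by the gap test, and about 1 in 20 would by chance. HES1 was at the floor (100) in the same line, and the part of that line's growth state or RNA in either value was not tested.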

How the results depend on the processing

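No member probe set was called for sex, age or sex by age under any alternative run. The culture difference was recomputed in 5 alternatives: quantile normalization, median centring, the floor of 200, the pseudocount and the mean of probe sets. In each of them, 3 genes differed by over 2-fold at 50% confluence. Over all probe sets, calls by sex numbered 2, but 1 with a floor of 200, with a pseudocount of 50 and without a filter, 0 with the filter of all 10 lines above the floor, 3 with no intensity trend, array quality weights or sex alone, and 1 to 2 when a line was left out. Calls by age numbered 0, but 1 without a filter. Calls by sex by age numbered 1, but 0 with quantile normalization, median centring, no filter, no intensity trend or array quality weights, and 0 to 1 when a line was left out. Correlated pairs numbered 1, but 0 with the mean of a gene's probe sets, and 0 to 1 when a line was left out. DKK1's sex difference was -0.076 with array quality weights. Leaving out each line turned the sign of small estimates. Their sex differences then ran from -0.16 to 0.90 (WNT5A), -0.14 to 0.13 (JAG1), -0.38 to 0.056 (FZD7), -0.34 to 0.43 (DKK1), -0.21 to 0.45 and -0.15 to 0.50 (FZD2), -0.77 to 0.18 (HES1) and -0.26 to 0.50 (NOTCH3). Their age slopes ran from -0.086 to 0.23 (FZD7), -0.14 to 0.12 (dimmer JAG1 probe set) and -0.44 to 0.14 (HES1), and r of NOTCH3 with JAG1 ran from -0.23 to 0.34. The causes were not tested. With 5 lines per sex and 1 culture each, small differences could not be resolved, and values near the floor are compressed. No paired analysis was possible because line numbers follow accession order and pair no lines.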

Other observations

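Some list genes varied between lines about as much as the members. TCF7L2 ran from the floor of 100 to 611 over the 10 standard lines, and read 100 at 50% confluence, against 350 in the standard culture of male line 1. WNT10B ran from 100 to 444, and read 243 at 50% confluence, against 100 in the standard culture. SERPINF1, a secreted protein that can bind Wnt co-receptors, ran from 1999 to 12718.

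At 50% confluence, 5 of 18 Notch list genes read above or below every one of the 10 standard lines (RFNG, RBPJ, HDAC2, NEURL1 and SPEN), a share of 27.8%. For 3 of these the margin was very small: RBPJ read 800 against a lowest line of 801, SPEN 227 against 230 and HDAC2 523 against 529. NEURL1 read 415 against a highest line of 398, and RFNG 442 against 340. Of 29 Wnt list genes, 3 did (PPP2CA, RYK and WNT6), a share of 10.3%. The share over all genes was 17.3%. WNT6, a ligand, read 8344 at 50% confluence, against 6065 in the standard culture and 2966 to 7487 over the lines. Its median over the lines, 5186.5, was far above those of the other tested ligands of the list (at most 345, WNT11). It had no second tested probe set, and how specifically the one used reports WNT6 was not tested. There was 1 culture, so these are values without a test, and the genes were named after their values were seen.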
